A study of Saccharomyces cerevisiae with 6 samples.

Results

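The mRNAs of 40 splicing and cap-binding factors were followed in budding yeast that made too much Yra1, a protein that binds mRNA and helps to bring it to the nuclear pore. The set holds 38 proteins of the spliceosome and its assembly cycle and the 2 subunits of the nuclear cap-binding complex, STO1 and CBC2. Members were taken by gene symbol from the annotation of the array, and all 40 listed genes were found, each with 1 probe set, among 5449 genes measured by 5498 probe sets. All cells were strain W303-1A, mating type a, with the alleles ura3-1, trp1-1, can1-100 and ade2-1 and the double mutations leu2-3 with leu2-112 and his3-11 with his3-15. The GAL-YRA1Δi group (3 arrays) carried an intron-less YRA1 behind the GAL1 promoter on the plasmid pRS413. The GAL-YRA1 group (3 arrays), named WT in the labels, carried the intron-containing gene on the same plasmid, so it too held a galactose-driven copy of YRA1. Both were cultured on raffinose and then given 2% galactose for 4 hours, and total RNA was hybridised to 1-colour Affymetrix Yeast Genome 2.0 arrays. Values are log2 signals on the scale of RMA, a method that gives all arrays the same distribution, and a positive change means a higher signal in GAL-YRA1Δi cells.

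Splicing removes introns from pre-mRNA in a cycle of RNA-protein particles. The U1 particle pairs with the 5' splice site, the U2 particle takes the branch point, and a tri-snRNP of U4, U6 and U5 joins, after which RNA helicases and the Prp19 complex reshape the assembly for the 2 steps of the reaction. The cap-binding complex sits on the 5' cap of the nascent transcript and helps U1 to bind. Few yeast genes have introns, and YRA1 is one of them, with a poorly spliced intron through which the amount of Yra1 is held in check.

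YRA1 itself had 14.48, 14.62 and 14.50 in GAL-YRA1Δi cells, against 13.35, 13.22 and 13.44 in GAL-YRA1 cells, so the groups were well apart. The change of 1.20 (SE 0.08, n = 3 each) had an adjusted p of 0.0102 in limma, a linear model with moderated variances, with Benjamini-Hochberg adjustment over all 5498 probe sets. The study's threshold was thus just missed in this fit, since it asks for 1.5-fold (0.585 on the log2 scale) and for an adjusted p under 0.01. The study itself lists YRA1 as up-regulated. The adjusted p of YRA1 was 0.109, 0.112, 0.0989 and 0.0802 without GAL-YRA1Δi replicate 1, GAL-YRA1Δi replicate 3, GAL-YRA1 replicate 1 and GAL-YRA1 replicate 3. It was 0.00763 if only GAL-YRA1Δi replicate 2 was dropped. The galactose genes GAL1, GAL7 and GAL10 lay between 14.55 and 14.77 on all arrays. A background level of 4.70 was the 95th percentile of annotated probe sets not assigned to 1 S. cerevisiae gene, taken to be those of Schizosaccharomyces pombe. Whether some of these had a target in these cells was not checked. Of the mating type a markers, MFA1, MFA2, STE2 and STE6 were above that level on all 6 arrays and BAR1 was below it on all 6. All 4 alpha markers lay above that level too. All 40 members were above that level on every array.

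No member of the splicing and cap-binding set passed the study's threshold, and none came near 1.5-fold. The largest change was that of PRP28, 1.28-fold lower in GAL-YRA1Δi cells, and the largest in the other direction was 1.21-fold, for AAR2, whose log2 change of 0.27 became -0.03 once the yeast probe sets alone were quantile normalized again. Over all probe sets, 0% passed the study's threshold in this fit, and 0 members passed the looser one of an adjusted p below 0.05 with 1.5-fold, which 0.4% of all probe sets passed. The study's own list of altered genes is not empty and holds up-regulated genes under 1.5-fold, so this fit does not reproduce it. The lowest adjusted p of a member was 0.162, for PRP16. Because cultures were measured as a whole, a shift in the mix of cells cannot be told apart from a shift of RNA per cell.

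The intervals bound how large a change could have been missed. For 38 of the 40 members (95%) the 95% confidence interval of the change lay inside 1.5-fold in both directions, against 79.2% of all probe sets. The exceptions were PRP28, whose interval reached 1.56-fold lower, and AAR2, whose interval reached 1.59-fold higher. Among the other 38 the widest bound was 1.41-fold, for PRP18, and the tightest 1.1-fold, for PRP11. The members were measured with less scatter than probe sets at large, with a median SE of 0.077 against 0.10.

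**Figure D1:**
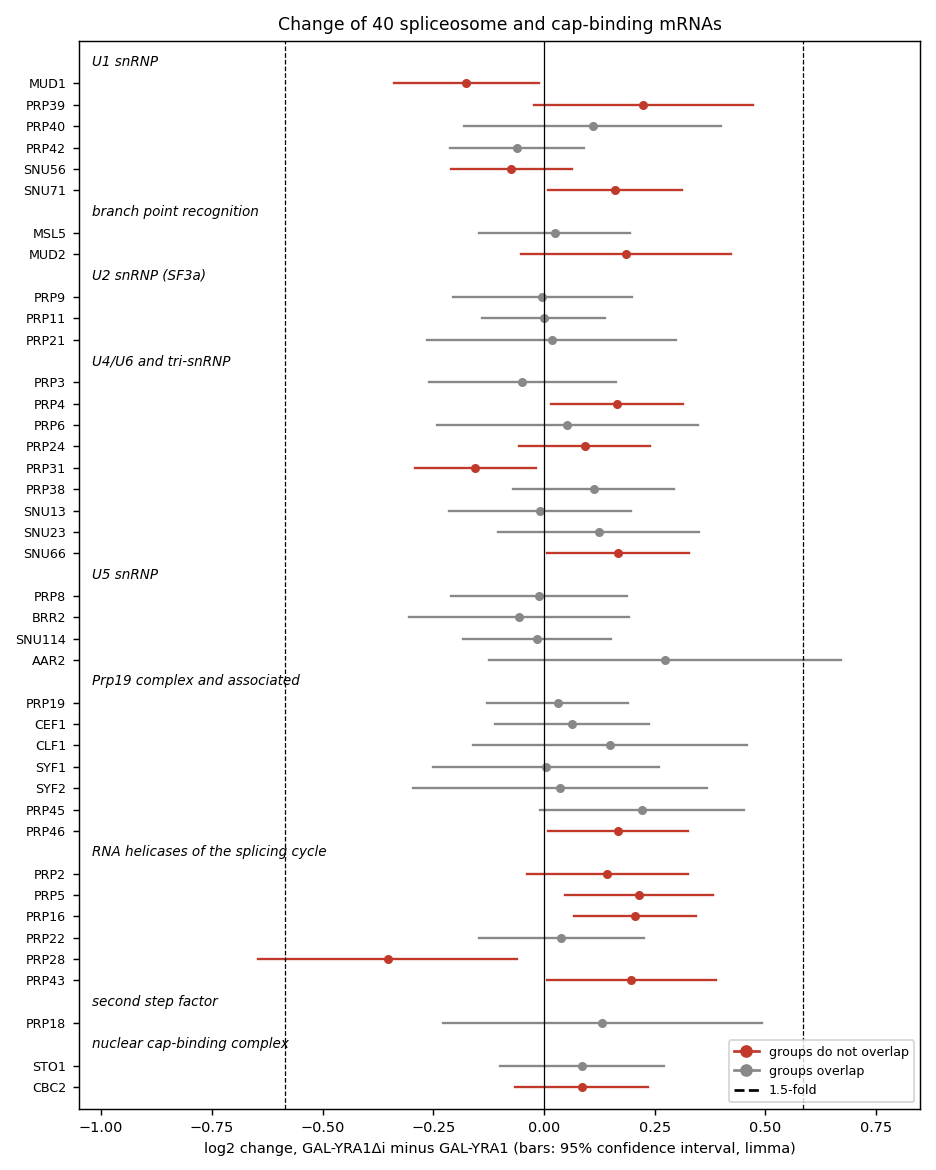
The log2 change of each of the 40 members (points, GAL-YRA1Δi minus GAL-YRA1) with its 95% confidence interval from limma (bars), ordered by role. Red marks the 16 members whose 3 GAL-YRA1Δi arrays all lay on one side of the 3 GAL-YRA1 arrays, and only the intervals of PRP28 and AAR2 cross the dashed lines at 1.5-fold.

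Below the thresholds, small changes leaned upwards. At an unadjusted p below 0.05 in limma, 7 members (17.5%) were higher, where 9.79% of all probe sets were, and 3 (7.5%) were lower, where 6.31% of all were. The 7 were PRP16, PRP5, PRP4, PRP46, SNU71, SNU66 and PRP43, and the 3 were PRP28, PRP31 and MUD1. The arrays of the groups did not overlap for 12 members higher in GAL-YRA1Δi cells (30%), against 13.6% of all probe sets, and for 4 lower (10%), against 8.57%. In all, 28 of the 40 changes were positive (70%), where 52.4% of all were, and the median change was 0.07, against 0.0091 for all probe sets. The genes were chosen with results of these arrays known, so no test was made over the set.

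These counts at an unadjusted p depended on single arrays. The count of higher members was 1 without GAL-YRA1Δi replicate 1, 0 without GAL-YRA1Δi replicate 3, 2 without GAL-YRA1 replicate 1 and 2 without GAL-YRA1 replicate 3, where 5.17%, 5.42%, 7.44% and 7.28% of all probe sets were higher. The count of lower members was 0, 0, 1 and 1 in the same 4 fits, where 3.95%, 3.44%, 4.91% and 4.93% of all were lower, and 1 without GAL-YRA1Δi replicate 2, where 9.68% were. With each array weighted by its fit to the model, 7 members had an adjusted p below 0.05 (MUD1, SNU71, PRP2, PRP5, PRP16, PRP28 and PRP43), as had 981 of all 5498 probe sets, and with both replicate 2 arrays left out 1 member had (PRP28, adjusted p = 0.0468), as had 685 of all.

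**Figure D2:**
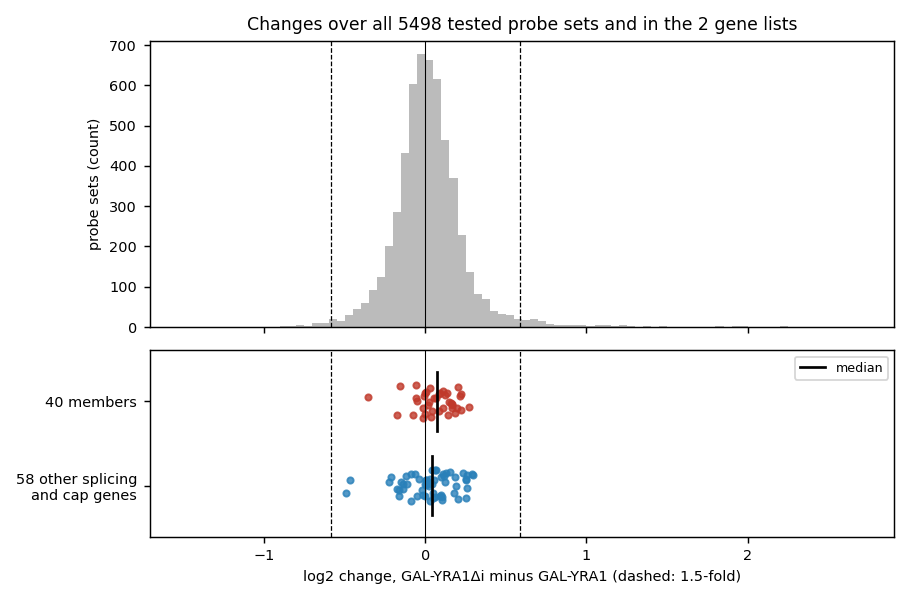
Histogram of the log2 changes of all 5498 tested probe sets (top, count per bin) and the single changes of the 40 members and of 58 other splicing and cap genes (bottom, points spread vertically for display, black lines at the medians of 0.07 and 0.04). No gene of either list lies beyond the dashed lines at 1.5-fold.

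Both subunits of the cap-binding complex had small positive changes, and neither passed any threshold. CBC2, the subunit that holds the cap, had 12.25, 12.28 and 12.20 in GAL-YRA1Δi cells, against 12.10, 12.19 and 12.19 in GAL-YRA1 cells, so the groups were apart by a hair. STO1, the large subunit that binds other mRNA factors, had 11.12, 11.34 and 11.24 in GAL-YRA1Δi cells, against 11.16, 11.17 and 11.10 in GAL-YRA1 cells. Here the lowest value of GAL-YRA1Δi cells lay within the range of GAL-YRA1 cells, so the groups overlapped. The changes were 0.08 for CBC2 (SE 0.06, unadjusted p = 0.218, adjusted p = 0.600 in limma) and 0.09 for STO1 (SE 0.08, adjusted p = 0.674), with intervals of 0.956-fold to 1.18-fold and 0.934-fold to 1.21-fold. Pairs 1, 2 and 3 differed by 0.15, 0.09 and 0.01 for CBC2 and by -0.04, 0.17 and 0.13 for STO1. The change of STO1 was 0.03 without GAL-YRA1Δi replicate 2 and 0.14 without GAL-YRA1Δi replicate 1, and that of CBC2 was 0.06 without GAL-YRA1 replicate 1.

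Among the 6 proteins of the U1 particle, 3 were higher and 3 lower. MUD1, a yeast U1 protein with an RNA-binding domain, had 11.39, 11.37 and 11.43 in GAL-YRA1Δi cells, against 11.64, 11.48 and 11.59 in GAL-YRA1 cells. All GAL-YRA1Δi values were below all GAL-YRA1 values, a change of -0.18 (SE 0.07, unadjusted p = 0.0397, adjusted p = 0.283). SNU71, a U1 protein found in yeast, had 9.89, 9.89 and 9.91 in GAL-YRA1Δi cells, against 9.70, 9.81 and 9.70 in GAL-YRA1 cells. Its 3 GAL-YRA1Δi arrays were nearly identical, and its change was 0.16 (SE 0.06, unadjusted p = 0.0409, adjusted p = 0.284). PRP39, a scaffold of U1, had 11.09, 11.36 and 11.14 in GAL-YRA1Δi cells, against 10.99, 11.08 and 10.85 in GAL-YRA1 cells, higher in each replicate pair by 0.10, 0.27 and 0.30. Its groups touched without overlap (change 0.22, adjusted p = 0.353). The rest differed less, by 0.11 for PRP40, which links U1 to the branch point protein (0.04 to 0.22 with 1 array left out), -0.06 for PRP42 and -0.07 for SNU56, whose groups did not overlap.

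MUD1 and STO1 are the only members whose annotated span (986 and 2908 bases) is not a multiple of 3, as in genes with an intron, and both are known to hold one. Their changes had opposite signs, -0.18 and 0.09.

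The branch point is first bound by Msl5 together with Mud2, the yeast counterpart of the large U2AF subunit. MUD2 had 11.02, 10.95 and 10.97 in GAL-YRA1Δi cells, against 10.60, 10.92 and 10.86 in GAL-YRA1 cells. The groups did not overlap, but 1 low array, GAL-YRA1 replicate 1, made much of the difference, and the change of 0.19 (adjusted p = 0.424) was 0.09 without it. MSL5 differed by 0.02. The subunits of SF3a, the part of the U2 particle that contacts the branch point region, were flat, with changes of -0.00086 for PRP11, -0.0035 for PRP9 and 0.02 for PRP21. PRP21 had 10.66, 10.93 and 10.55 in GAL-YRA1Δi cells, against 10.58, 10.79 and 10.72 in GAL-YRA1 cells, with replicate 2 the highest of each group and full overlap (adjusted p = 0.960).

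In the U4/U6 and tri-snRNP group, 6 of 9 genes had positive changes and 3 negative ones, and the mRNAs of 2 U4/U6 proteins differed in opposite directions without passing the adjusted test. PRP4, which binds Prp3 on U4/U6, had 10.58, 10.53 and 10.48 in GAL-YRA1Δi cells, against 10.35, 10.35 and 10.40 in GAL-YRA1 cells. PRP31, which clamps the U4 RNA together with Snu13, had 10.07, 10.07 and 10.04 in GAL-YRA1Δi cells, against 10.18, 10.23 and 10.23 in GAL-YRA1 cells. Neither pair of groups overlapped, and both genes had little scatter, with SDs of 0.05 and 0.03 for PRP4 and 0.02 and 0.03 for PRP31 (GAL-YRA1Δi, then GAL-YRA1). PRP4 differed by 0.16 (SE 0.06, unadjusted p = 0.0346, adjusted p = 0.266) and PRP31 by -0.15 (SE 0.06, unadjusted p = 0.0330, adjusted p = 0.262). SNU66, a tri-snRNP protein, had 9.68, 9.69 and 9.63 in GAL-YRA1Δi cells, against 9.44, 9.58 and 9.47 in GAL-YRA1 cells, again without overlap (change 0.17, unadjusted p = 0.0425, adjusted p = 0.289). PRP24, which anneals U6 to U4, was higher by 0.09 without overlap (adjusted p = 0.548). The others lay at 0.12 for SNU23, 0.11 for PRP38, 0.05 for PRP6, -0.05 for PRP3 and -0.0094 for SNU13, which also binds box C/D snoRNAs, and their groups overlapped.

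The 3 large proteins at the heart of the U5 particle did not differ beyond their scatter. PRP8, the scaffold of the catalytic centre, differed by -0.01, the U4/U6 unwinding helicase BRR2 by -0.06 and the GTPase SNU114 by -0.02, with adjusted p of 0.962, 0.845 and 0.941 in limma. AAR2, which chaperones the assembly of U5 and gives way to Brr2, had the largest SE of the members, with 7.42, 7.27 and 6.97 in GAL-YRA1Δi cells, against 6.95, 6.70 and 7.18 in GAL-YRA1 cells. By label number, pairs 1, 2 and 3 differed by 0.46, 0.57 and -0.21, though arrays numbered 1 and 3 were not clear pairs. The AAR2 change of 0.27 (SE 0.16, adjusted p = 0.496) has no settled direction, since the groups overlapped and it was -0.03 under the renewed quantile normalization. With 1 array left out it was 0.15 to 0.40.

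All 7 genes of the Prp19 complex and its partners had positive changes, between 0.0042 for SYF1 and 0.22 for PRP45, and 1 of them, PRP46, had an unadjusted p below 0.05 in limma. In pair 2, however, all but PRP45 and PRP46 were lower in GAL-YRA1Δi cells. The medians of the group in pairs 1, 2 and 3 were 0.172, -0.0225 and 0.1408. PRP46 and PRP45 join the complex at activation. PRP46 had 10.66, 10.51 and 10.54 in GAL-YRA1Δi cells, against 10.40 on each of the 3 GAL-YRA1 arrays, with no overlap (change 0.17, SE 0.07, unadjusted p = 0.0409, adjusted p = 0.284). PRP45 had 10.37, 10.38 and 10.24 in GAL-YRA1Δi cells, against 9.97, 10.26 and 10.10 in GAL-YRA1 cells, where the lowest GAL-YRA1Δi array fell just below the highest GAL-YRA1 array. It was higher in each pair, by 0.40, 0.12 and 0.14 (adjusted p = 0.328). PRP19 itself, a ubiquitin ligase, differed by 0.03, and its core partners CLF1, CEF1 and SYF2 by 0.15, 0.06 and 0.04, all with overlap. With 1 array left out these were 0.04 to 0.28 for CLF1, 0.02 to 0.12 for CEF1 and -0.06 to 0.17 for SYF2, with the highest values in each case without GAL-YRA1 replicate 2. SYF1 was at -0.07 under the same renewed normalization.

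The RNA helicases that drive the cycle held the members with the 3 lowest p, 2 of them higher and 1 lower. PRP16, which remodels the spliceosome between the 2 steps, had 10.57, 10.62 and 10.63 in GAL-YRA1Δi cells, against 10.39, 10.43 and 10.39 in GAL-YRA1 cells. The gap between the groups was wider than the spread within either, and the change of 0.21 (SE 0.06) had an unadjusted p of 0.0106 and an adjusted p of 0.162 in limma. PRP5, which lets U2 join, had 9.89, 9.85 and 9.98 in GAL-YRA1Δi cells, against 9.75, 9.71 and 9.63 in GAL-YRA1 cells (change 0.21, SE 0.07, unadjusted p = 0.0194, adjusted p = 0.216). PRP43, which takes apart the spent spliceosome and also serves ribosome assembly, had 12.15, 11.92 and 12.06 in GAL-YRA1Δi cells, against 11.87, 11.79 and 11.88 in GAL-YRA1 cells (change 0.20, SE 0.08, unadjusted p = 0.0448, adjusted p = 0.296). In all 3 genes each GAL-YRA1Δi array lay above each GAL-YRA1 array.

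PRP28, the helicase that trades U1 for U6 at the 5' splice site, was the exception among them. It had 9.85, 9.95 and 9.79 in GAL-YRA1Δi cells, against 10.10, 10.47 and 10.08 in GAL-YRA1 cells, and every GAL-YRA1Δi array was below every GAL-YRA1 array. GAL-YRA1 replicate 2 stood well above the other arrays of its group. The change was -0.35 (SE 0.12, unadjusted p = 0.0254, adjusted p = 0.241 in limma), with differences of -0.25, -0.52 and -0.29 in pairs 1, 2 and 3, and it was -0.23 without GAL-YRA1 replicate 2. PRP2, which activates the spliceosome before the first step, had 9.48, 9.33 and 9.55 in GAL-YRA1Δi cells, against 9.31, 9.31 and 9.30 in GAL-YRA1 cells. Its groups were apart only narrowly, since GAL-YRA1Δi replicate 2 lay next to the GAL-YRA1 arrays (change 0.14, adjusted p = 0.419). PRP22, which releases the spliced mRNA, differed by 0.04 with overlap.

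PRP18, a helper of the second step, was as scattered as AAR2. It had 8.33, 7.91 and 8.16 in GAL-YRA1Δi cells, against 8.19, 7.77 and 8.03 in GAL-YRA1 cells, with replicate 2 the lowest of both groups. By label number, each pair differed by nearly the same amount, 0.14, 0.13 and 0.13, although the groups overlapped. Only the arrays numbered 2 were a clear pair, so this even difference rests partly on an unsupported pairing. The GAL-YRA1Δi value of 8.16 lay below the GAL-YRA1 value of 8.19, so another pairing need not be higher throughout. The change was 0.13 (SE 0.15, adjusted p = 0.738 in limma). With the label number as a block the adjusted p was 0.215, which rests on the same pairing. Under the renewed normalization the change was -0.01.

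**Figure D3:**
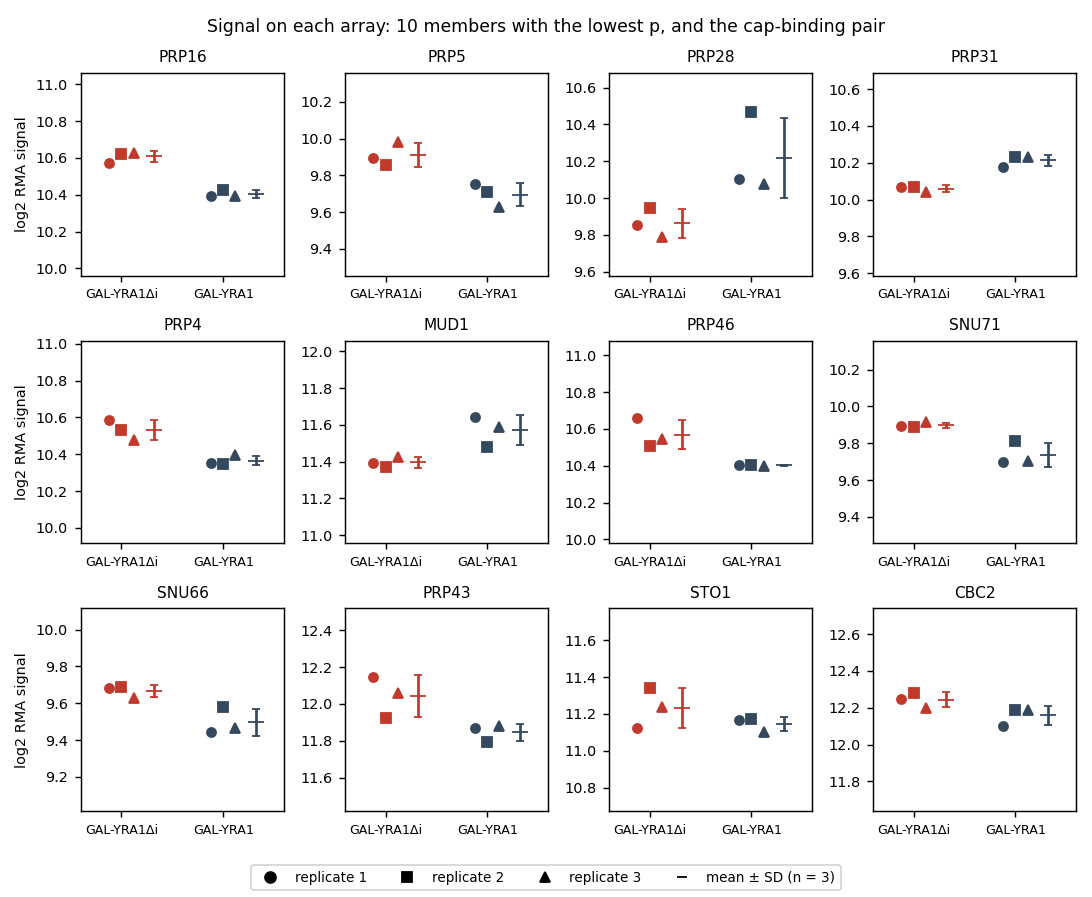
Log2 RMA signal on each array (symbols mark replicates 1 to 3) for the 10 members with the lowest p and the cap-binding genes STO1 and CBC2, with the mean and SD of each group (n = 3) at the right of its points. All panels span the same range of log2 units, and in the first 10 panels the groups do not overlap.

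Many members also varied with the replicate number. Replicate 2 was the highest array of both groups for 17 of the 40 members (42.5%, against 31.9% of all probe sets) and the lowest of both for 7 (17.5%, against 32.4%). The 17 included 6 of the 7 Prp19 complex genes (PRP19, CEF1, CLF1, SYF1, SYF2 and PRP45) as well as PRP28, STO1 and CBC2, and the 7 were MUD1, PRP6, PRP24, SNU13, BRR2, PRP43 and PRP18. The lean to positive changes was seen in pairs 1 and 3, with 30 and 28 members higher (75% and 70%) and medians of 0.10 and 0.11. It was not seen in pair 2, with 19 higher (47.5%) and a median of -0.0024. Of all probe sets, 52.1%, 51.6% and 51.9% were higher in pairs 1, 2 and 3, with medians of 0.00996, 0.0058 and 0.0105. Across the 6 arrays, GAL-YRA1 replicates 3 and 1 held the lowest value of 14 and 11 members (35% and 27.5%, against 19.8% and 13.5% of all probe sets), while GAL-YRA1Δi replicate 1 held that of none (12.7% of all). The highest value lay on GAL-YRA1 replicate 2 for 13 members (32.5%, against 19.5% of all), more than on GAL-YRA1Δi replicates 1, 2 and 3 with 7, 8 and 7.

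**Figure D4:**
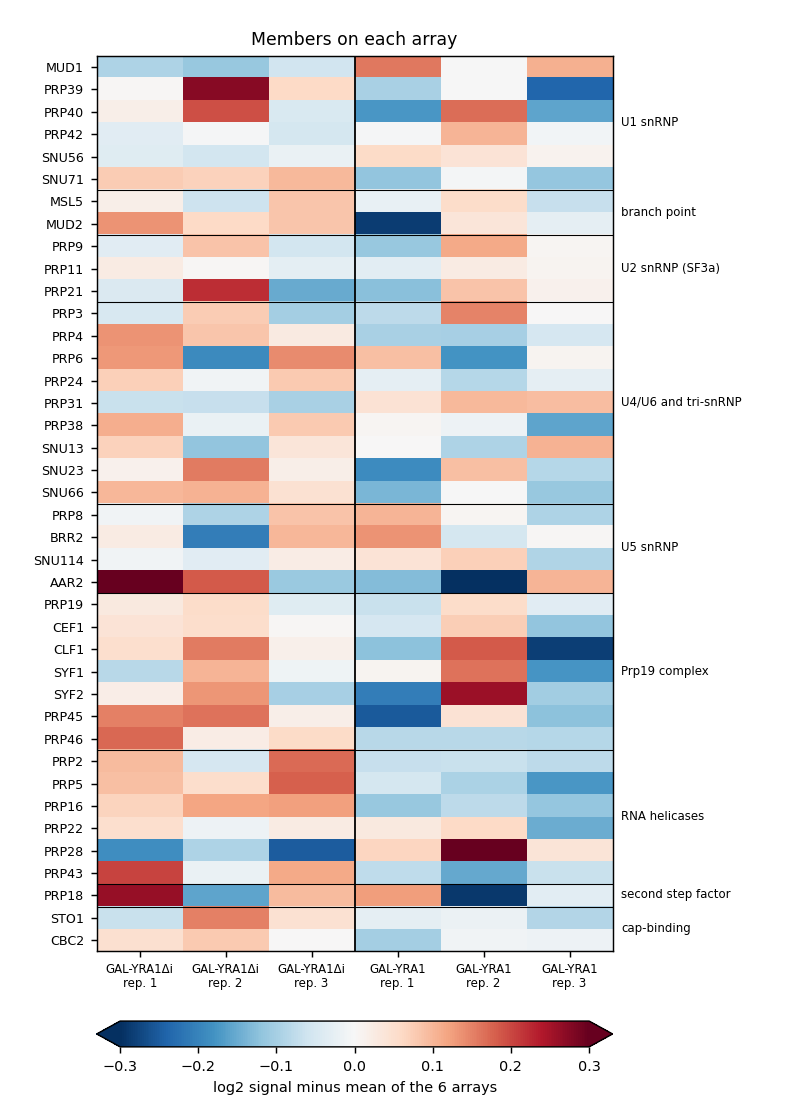
Log2 signal of each member on each array, as the difference from that gene's mean over the 6 arrays (red higher, blue lower, colours capped at 0.3), with GAL-YRA1Δi arrays left of the line and roles set apart by rows. PRP16, PRP5, PRP4 and PRP46 are redder at the left and PRP28, PRP31 and MUD1 bluer, while PRP40, CLF1, SYF2 and PRP18 follow replicate 2 in both groups.

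A further 58 splicing and capping genes were measured beside the members. Of these (Sm and Lsm proteins, other particle proteins, disassembly factors and cap synthesis enzymes), 0 passed either threshold, 38 had positive changes (65.5%) and the median was 0.04. In pairs 1, 2 and 3 they had medians of 0.10, 0.02 and -0.05, where the members had 0.10, -0.0024 and 0.11, and the difference in pair 3 was not tested. At an unadjusted p below 0.05 in limma, 9 were higher (15.5%, against the 9.79% of all probe sets) and 3 were lower (5.17%, against 6.31%). The lowest p belonged to SPP382, the partner that switches on Prp43 for disassembly, with 9.86, 9.78 and 9.88 in GAL-YRA1Δi cells, against 9.64, 9.52 and 9.47 in GAL-YRA1 cells (change 0.30, SE 0.07, unadjusted p = 0.00586, adjusted p = 0.139). SPP382 is on the study's list of up-regulated genes. CWC23, a J-protein that works with it, had 10.54, 10.64 and 10.47 in GAL-YRA1Δi cells, against 10.27, 10.35 and 10.29 in GAL-YRA1 cells (change 0.25, adjusted p = 0.165). In both genes every GAL-YRA1Δi array lay above every GAL-YRA1 array, while NTR2, another partner of Prp43, differed by -0.02.

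Subunits of the RES complex, which helps to retain and splice pre-mRNA, were split. IST3 had 11.28, 10.88 and 10.92 in GAL-YRA1Δi cells, against 11.30, 11.47 and 11.72 in GAL-YRA1 cells, a change of -0.47 (SE 0.15, unadjusted p = 0.0202, adjusted p = 0.220), and PML1 differed by -0.21 (adjusted p = 0.229), while BUD13 differed by 0.19 (adjusted p = 0.270). The groups of IST3 were barely apart, at 11.28 and 11.30. In the U2 particle, RSE1 and CUS1 of SF3b and MSL1 differed by 0.26, 0.20 and 0.29, the other SF3b genes HSH49, YSF3, HSH155 and RDS3 by -0.15, -0.04, 0.02 and 0.05 with overlap, and CUS2, which helps U2 RNA to fold, by -0.18. The adjusted p of RSE1, CUS1, MSL1 and CUS2 lay from 0.226 to 0.262. CWC24 and CWC2, partners of the Prp19 complex, differed by 0.26 and 0.24 (adjusted p = 0.229 and 0.247), and 14 of the 16 genes of that group were positive. The largest change among the 58 was that of USB1, which trims U6 RNA, with 8.84, 9.53 and 8.78 in GAL-YRA1Δi cells, against 9.45, 9.81 and 9.35 in GAL-YRA1 cells. It was lower in each pair, but the groups overlapped (change -0.49, SE 0.23, adjusted p = 0.367).

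**Figure D5:**
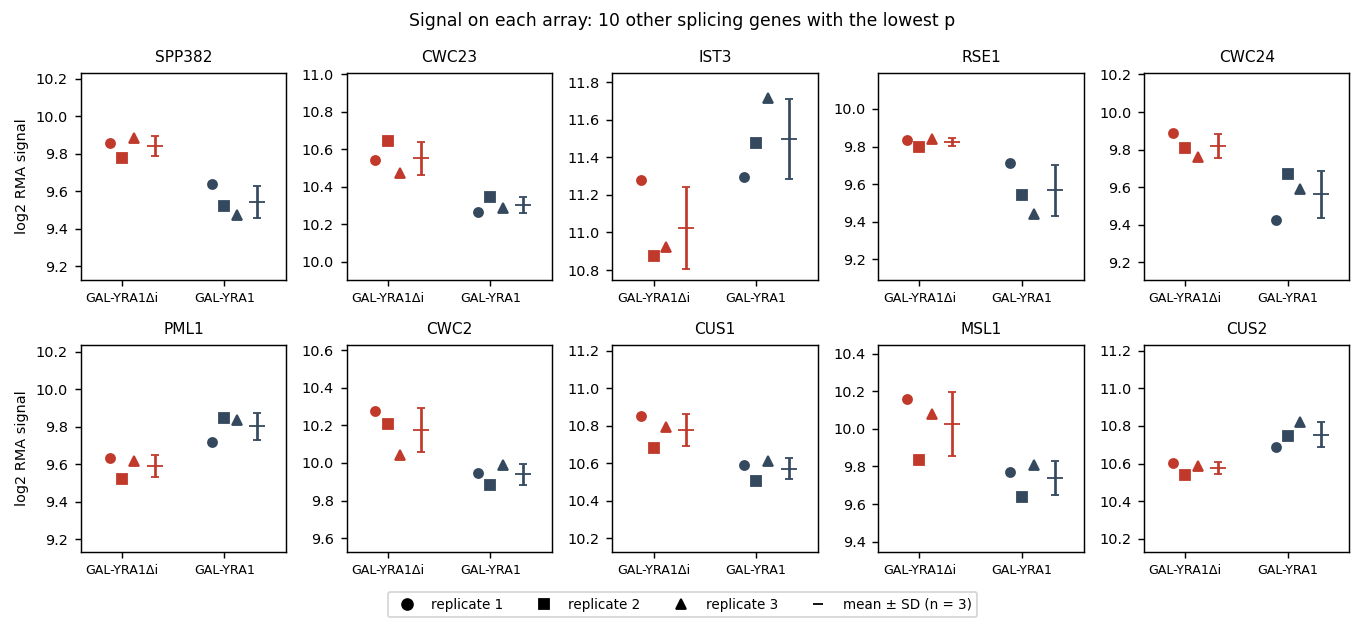
Log2 RMA signal on each array (symbols mark replicates 1 to 3) for the 10 splicing genes outside the member set with the lowest p, with the mean and SD of each group (n = 3) at the right of its points. The GAL-YRA1Δi points lie above the GAL-YRA1 points for SPP382, CWC23, RSE1, CWC24, CWC2, CUS1 and MSL1, and below them for IST3, PML1 and CUS2.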

How the data were processed

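The authors deposited 1 table with a log2 RMA signal for 10928 probe sets on 6 arrays, with background subtraction, quantile normalization and probe summary done by them, and limma named in their methods (no versions are given in the sources used here). A shift common to most mRNAs is removed by RMA and would not be seen. Probe sets were named by platform annotation and RefSeq identifiers (R64 table, used for names and spans): 5498 belonged to 1 S. cerevisiae gene. All of these were compared, unfiltered, with limma 3.58.1 in R 4.3.3 (group only, two-sided), with Benjamini-Hochberg adjustment over the whole set. The fit was tested on simulated data with independent noise on each array, so a pattern shared by arrays of 1 number was not part of that test. The number of arrays limits the precision, and labels give 3 biological replicates a group. Over all probe sets, deviations of arrays sharing a number from the means of their groups had r = 0.344, 0.695 and 0.301 for numbers 1, 2 and 3. Over the members alone r was 0.363, 0.683 and -0.176. Numbers 1 and 3 correlated more strongly crosswise, at 0.664 and 0.582 over all probe sets, so only number 2 stood apart as a pair. Pairs by label number are thus given as description only for numbers 1 and 3. A fit with the label number as a block was run as an alternative. Values were given on every array for the 15 members with the lowest p, the lowest in each role, STO1 and CBC2, and of the other splicing genes the 10 with the lowest p were named. BUD13, NTR2, USB1, the other SF3b genes and single low-change genes were named after their values were seen. Members, lists and tests were chosen with earlier results of these data known.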

Additional observations from a re-analysis of the deposited data

How the results depend on the processing

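Under all 17 alternatives 0 members passed the study's threshold or the looser one with 1.5-fold. The 7 members higher at an unadjusted p below 0.05 became 3 with renewed quantile normalization (8.62% of all probe sets were higher), 2 with all probe sets of the table (5.44%), 3 with an intensity trend (9.13%), 13 with array weights (20.8%), 12 with both replicate 2 arrays left out (18.3%) and 1 with GAL-YRA1Δi replicates 1 and 3 averaged (5.26%), and 0 to 7 with 1 array left out. The 3 lower became 1, 1 and 0 with all probe sets, the trend and the averaging (5.6%, 6.62% and 3.62% of all), and 0 to 2 with 1 array left out. Members higher without overlap numbered 21 with both replicate 2 arrays left out, where 34% of all probe sets were, since 2 arrays a group overlap less easily. The median of 0.07 was 0.034 with renewed quantile normalization. With the replicate number as a block, 9 members were higher and 3 lower (14.7% and 10.8% of all probe sets), and the block moved no member past an adjusted p of 0.05. The YRA1 change passed an adjusted p of 0.01 at 1.199 with dim probe sets left out, all probe sets, the trend or gene means, at 1.134 with array weights and at 1.095 with both replicate 2 arrays left out, and it was 1.138 to 1.251 with 1 array left out, with an adjusted p of 0.00763 without GAL-YRA1Δi replicate 2, 0.0268 without GAL-YRA1 replicate 2 and 0.0802 to 0.112 in the other 4 fits. The cause of these shifts was not tested.

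Of the 40 members, 25 kept their sign throughout. Those that did not had small changes or were AAR2 (-0.027) and PRP18 (-0.010) with renewed quantile normalization, which also gave SNU13 0.010 and SYF1 -0.071. Equal array medians gave PRP11 0.00016. Array weights gave PRP9 0.0077, PRP11 0.0017, PRP21 -0.050, SNU13 0.020, PRP8 0.018, SNU114 0.0048 and SYF1 -0.0013. With both replicate 2 arrays left out PRP9 was 0.0087, PRP11 0.0098, PRP21 -0.042, PRP8 0.031 and SNU114 0.030. Averaging gave GAL10 -0.0015, PRP9 0.018, PRP11 7.5e-05 and PRP6 -0.0019. With 1 array left out the ranges were -0.0065 to 0.028 for GAL10, -0.011 to 0.062 for MSL5, -0.061 to 0.052 for PRP9, -0.017 to 0.013 for PRP11, -0.089 to 0.098 for PRP21, -0.1005 to 0.014 for PRP3, -0.024 to 0.162 for PRP6, -0.058 to 0.048 for SNU13, -0.061 to 0.037 for PRP8, -0.121 to 0.034 for BRR2, -0.065 to 0.017 for SNU114, -0.083 to 0.086 for SYF1, -0.059 to 0.174 for SYF2 and -0.025 to 0.079 for PRP22. The number of arrays limits the precision. All members were above the background level on every array, but so were the alpha markers in these mating type a cells, so that level is a weak guide to expression.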

Other observations

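Transcripts that the spliceosome acts on were looked at through genes whose annotated span is not a multiple of 3, as in most genes with an intron (a list made after the data were seen, so it has no test). It also takes in a few genes with a frameshift, such as OAZ1, EST3 and transposon frames. Introns were not checked gene by gene, so a gene named from this list, such as AAD6, need not have one. Apart from YRA1 and the ribosomal protein genes, 110 such genes were measured. Of these, 70 had negative changes, where 2619 of all 5498 probe sets had, and the median was -0.085 against 0.0091 for all probe sets. At an unadjusted p below 0.05 in limma, 19 (17.3%) were lower in GAL-YRA1Δi cells, where 6.31% of all probe sets were, and 4 (3.64%) were higher, where 9.79% were. The count of negative changes was 67 to 74 with 1 array left out, and the count of lower genes 7 without GAL-YRA1Δi replicate 3, 9 without GAL-YRA1Δi replicate 1 and 9 without GAL-YRA1 replicate 3 (6.36%, 8.18% and 8.18%, where 3.44%, 3.95% and 4.93% of all were). With 1 array left out the median lay from -0.0983 to -0.0427, where that of all probe sets lay from 0.00634 to 0.0165. Medians in replicate pairs 1, 2 and 3 were -0.048, -0.029 and -0.129.

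The lowest p in that list belonged to the kinase gene MRK1, with 11.25, 11.49 and 11.33 in GAL-YRA1Δi cells, against 12.36, 12.27 and 12.44 in GAL-YRA1 cells (change -0.997, adjusted p = 0.0227). TMA20, with 12.60, 12.54 and 12.56 in GAL-YRA1Δi cells, against 12.85, 12.75 and 12.88 in GAL-YRA1 cells, and the phosphotransferase gene EPT1 (change -0.42), which acts in phospholipid synthesis, were lower with no overlap between groups (adjusted p = 0.140 and 0.149), as was the U1 gene MUD1. Those higher at an unadjusted p below 0.05 were AAD6 and the meiotic genes REC102, DMC1 and SAE3, with changes of 1.96, 0.86, 0.55 and 1.59. Meiotic genes did not share a direction, since HFM1 and REC107 were lower at the same cut without overlap, with changes of -0.36 and -0.15. SAE3 had 5.66, 5.05 and 5.65 in GAL-YRA1Δi cells, against 3.59, 4.71 and 3.27 in GAL-YRA1 cells. The GAL-YRA1 values of 3.59 and 3.27 lay below the background level, and 4.71 lay just above it. Its replicate pairs differed by 2.06, 0.34 and 2.38, so the size of the SAE3 change is uncertain. Among ribosomal protein genes with such a span, 51 of 54 had negative changes, where 2619 of all 5498 probe sets had. Their median was -0.056, and 0 had an unadjusted p below 0.05 in limma. Ribosomal protein genes without such a span were not set beside them, so a shift of all ribosomal protein genes cannot be told apart from one tied to the span. The arrays do not separate spliced from unspliced transcripts, so splicing itself was not measured.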
